A study of Homo sapiens with 10 samples.

Results

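A set of 10 protein-coding genes was followed across 10 nanopore RNA-seq libraries of 7 ovarian cancer cell lines. The 3 genes CDKN2A, CDKN2B and MTAP lie side by side on chromosome 9p21, and the others are RB1, CCND1, CCND2, CCND3, CCNE1, CDK4 and CDK6. All act at the G1 restriction point but MTAP, which was taken as the neighbour of CDKN2A and CDKN2B. The genes were picked by name, with their levels across these libraries already known, and every transcript that carries a member's name was taken. That gave 39 of 99493 transcripts and 10 of 57110 gene identifiers. Because levels chose the genes, differences between lines are given as a description with no test.

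In G1, D-type cyclins bind CDK4 or CDK6, and cyclin E binds CDK2. These kinases phosphorylate the retinoblastoma protein RB1, which then releases E2F factors, and E2F factors switch on genes for DNA replication. CDKN2A encodes 2 unrelated proteins in different reading frames: p16INK4a, which inhibits CDK4 and CDK6, and p14ARF, which blocks the ubiquitin ligase MDM2. CDKN2B encodes p15INK4b, another inhibitor of CDK4 and CDK6. MTAP, its neighbour, encodes an enzyme of the pathway that recycles methylthioadenosine to methionine. Loss of the 9p21 segment is a frequent event in human cancer and often takes these 3 genes together.

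IGROV-1 was sequenced as 2 PromethION and 2 MinION libraries, and 6 other lines were sequenced once each on a PromethION: COV362, COV504, OVKATE, OVMANA, OVTOKO and SK-OV-3. The labels name the line and the instrument for each library and give no treatment, so every group is a line as cultured and every line but IGROV-1 rests on 1 library. Where nothing says that replicates came from separate cultures, p-values measure only the spread between these libraries. Library totals ran from 1729782 to 3666224 estimated counts, and levels are counts scaled to a total of 1000000 (CPM). A count of 0 allows up to 1.73 CPM in the shallowest library and 0.82 CPM in the deepest (3 counts of the total). All 9 epithelial markers were found. In IGROV-1 they summed to 621 and 569 CPM in the first replicates (PromethION, then MinION) and 1358 and 1437 CPM in the second. OVTOKO (708) and SK-OV-3 (1279) lay between the replicates, and the other 4 lines were at 1938 to 9753 CPM. The markers differed among themselves: in the 4 IGROV-1 libraries EPCAM was at no more than 1.54 CPM and KRT7 at 0. KRT18 was at 263 and 244 CPM in the first replicates and 1041 and 1080 CPM in the second. The 4 blood cell markers found summed to 0 to 12.4 CPM, with PTPRC at no more than 0.44 CPM, CD3E at 0 and LYZ at 12.4 CPM in OVKATE. The 6 endothelial and fibroblast markers summed to 1.7 to 230.4 CPM, highest in SK-OV-3, which had COL1A1 at 219 CPM and PECAM1 at 10.6 CPM. Mitochondrial genes took 13.0% and 15.2% of the counts in the IGROV-1 PromethION libraries, 5.63% and 6.35% in the MinION libraries and 2.82% to 4.54% in the other lines. The part of these markers in the levels below was not tested, and that of the mitochondrial share only through the rescaled totals given in the closing section.

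The results on CDKN2A turn on which first exon a read holds. The p16INK4a transcript (ENST00000304494) and the p14ARF transcript (ENST00000579755) start 19.5 kb apart on the minus strand of chromosome 9. They share exons 2 and 3, so only the first exon tells them apart. The deposited counts are estimates and can be fractions (423.7 for p16INK4a in OVMANA), so a read without a first exon can be divided between the transcripts. The share intervals below do not cover that division.

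CDKN2A (ENSG00000147889, chr9:21967753-21995301 on GRCh38) was read in abundance in 4 lines and was at or near 0 in the other 3. It stood at 434 CPM in COV362 (1109 counts), 289 CPM in OVMANA (541 counts) and 128 CPM in OVKATE (258 counts). The IGROV-1 PromethION libraries gave 62.4 and 75.6 CPM (69.0 ± 9.36 CPM, SD, n = 2), and the MinION libraries 88.9 and 123 CPM. SK-OV-3 held 1 count (0.51 CPM), and OVTOKO and COV504 held 0. In order of level the lines ran COV362, OVMANA, OVKATE, IGROV-1 and then the 3 empty or nearly empty lines. On PromethION, none of the first 4 had a 95% counting interval (Wilson) that overlapped that of the next. The second IGROV-1 MinION library (111 to 135 CPM) did overlap OVKATE (113 to 144 CPM). The steps were 1.5-fold (1.35 to 1.67, exact 95% counting interval) from OVMANA to COV362, 2.27-fold (1.95 to 2.64) from OVKATE to OVMANA and 1.85-fold (1.56 to 2.19) from IGROV-1 to OVKATE. These intervals, like the floors, cover counting error only. CDKN2A itself differed 1.21-fold between IGROV-1 replicates on PromethION and 1.38-fold on MinION, where the smallest step above was 1.5-fold. COV362 was at least 325.5-fold higher than COV504 and at least 250.5-fold higher than OVTOKO, taking 3 counts in the library at 0 as its ceiling. Against the single count of SK-OV-3 the ratio was 858, with a counting interval of 154 to 33914. In bulk RNA, fewer expressing cells and less RNA per cell cannot be told apart.

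**Figure D1:**
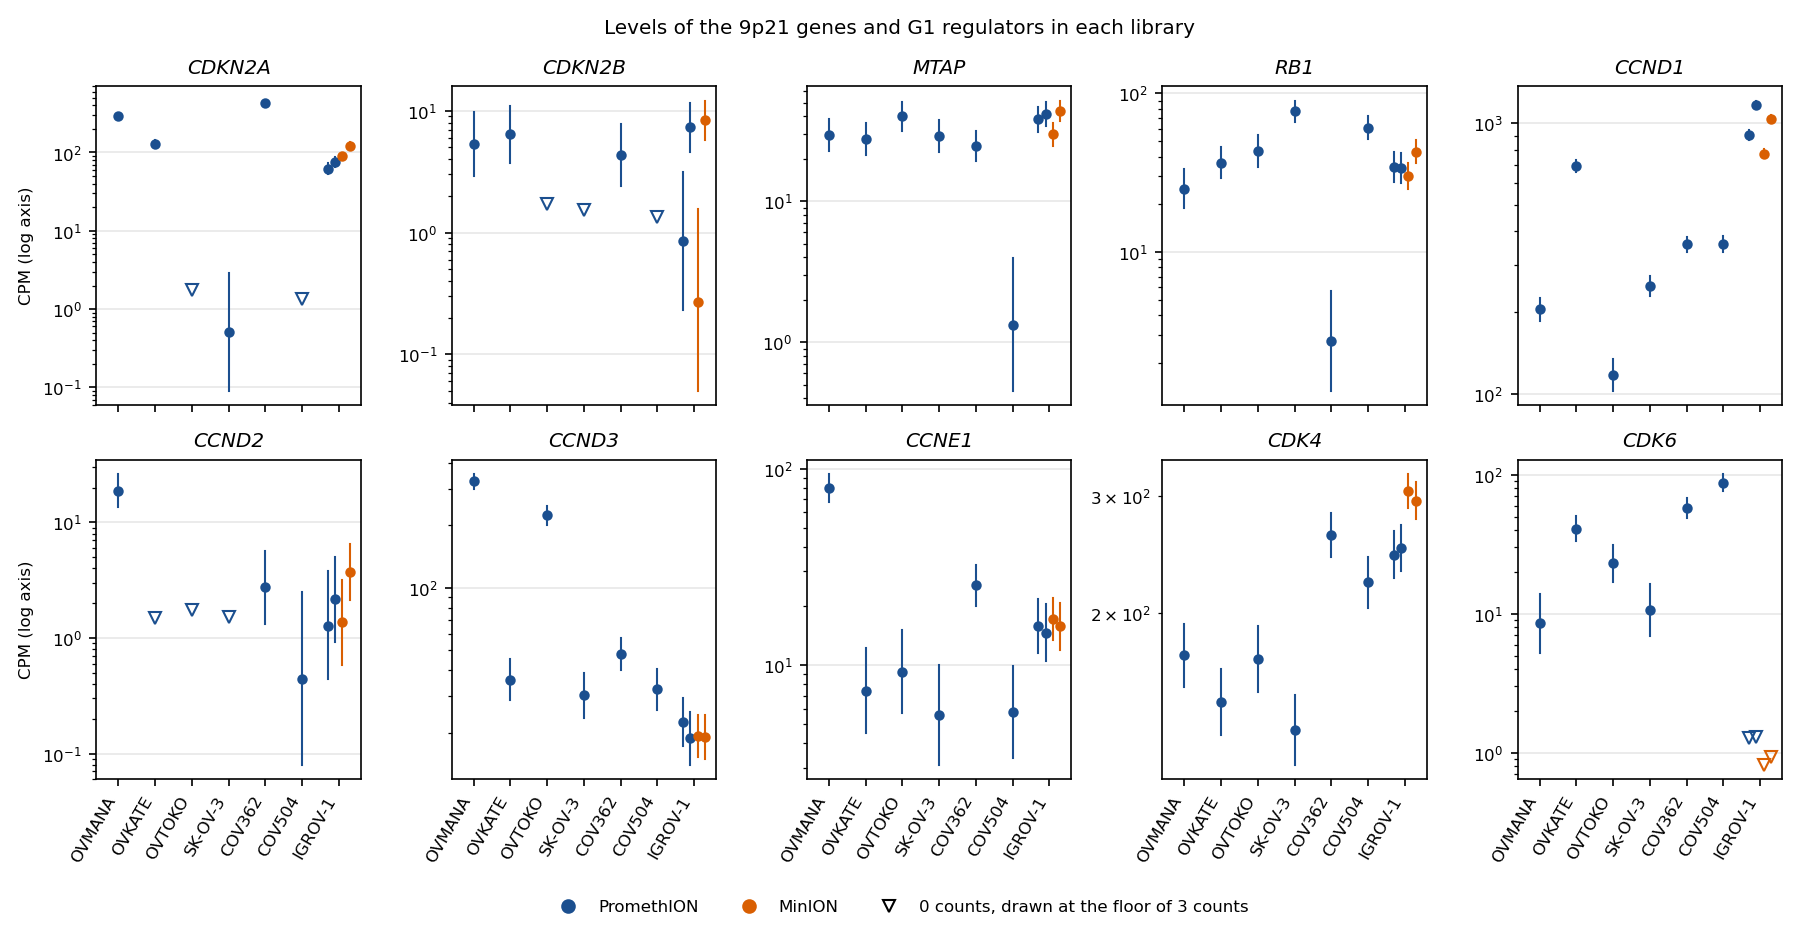
Level of each gene in every library, in CPM on a log axis with 95% Wilson intervals. Blue points are PromethION and orange points MinION libraries, and open triangles mark 0 counts, drawn at the floor of 3 counts. CDKN2A is at 0 or 1 count in OVTOKO, SK-OV-3 and COV504, CDK6 is at 0 in all 4 IGROV-1 libraries, RB1 is low in COV362 and MTAP is low in COV504.

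The 4 lines that made CDKN2A RNA did not all divide it alike between the reading frames. OVMANA carried mostly p16INK4a: 78.3% of its CDKN2A counts (95% Wilson interval 74.7% to 81.6%) came from that transcript and 20.6% (17.3% to 24.1%) from p14ARF. OVKATE was the reverse, with 9.0% (6.0% to 13.0%) from p16INK4a and 88.3% (83.9% to 91.7%) from p14ARF. COV362 lay between, at 53.7% (50.8% to 56.7%) and 44.8% (41.9% to 47.8%). In IGROV-1 the p16INK4a share was 44.1% and 36.4% on PromethION (40.2% ± 5.4, SD, n = 2) and 40.8% and 36.1% on MinION (38.4% ± 3.3, n = 2). The p16INK4a intervals of OVMANA, OVKATE and COV362 did not overlap one another. As estimates, the shares of all 3 lines lay outside the range of the 4 IGROV-1 libraries. The interval of COV362 overlapped that of the first IGROV-1 PromethION library (36.0% to 51.9%), so these 2 are not set apart.

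Set out as levels, the p16INK4a transcript reached 226 CPM in OVMANA and 233 CPM in COV362 but 11.5 CPM in OVKATE, and the p14ARF transcript reached 59.6, 195 and 113 CPM in the same lines. OVKATE thus had more p14ARF RNA than OVMANA while its p16INK4a RNA was lower. In the IGROV-1 libraries p16INK4a stood at 27.5, 27.5, 36.3 and 44.3 CPM and p14ARF at 34.3, 46.1, 50.7 and 75.3 CPM (2 PromethION, then 2 MinION). The p14ARF level was the higher of the pair in each of these 4 libraries. The instrument did not move the shares detectably: edgeR's transcript usage test gave CDKN2A an adjusted p of 1 (Simes p 0.87, Benjamini-Hochberg over 2979 genes), where 5.91% of the genes tested passed. The single count of SK-OV-3 was an estimate split 0.5 and 0.5 between the transcripts, so it gives no share.

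Of the 10 CDKN2A transcripts in the files, 3 carried nearly all counts. The third, ENST00000578845, starts just 5′ of the shared exon 2 and holds neither first exon, and it took 0.9% to 2.7% of the counts in the libraries with 20 or more. ENST00000530628, which joins the p14ARF first exon to a shortened exon 2, had 1 count in OVKATE. ENST00000498628 had 1 count in the second MinION library, and ENST00000579122 had 0.4 of a count over all libraries. ENST00000494262, ENST00000479692, ENST00000498124 and ENST00000497750 were at 0 throughout.

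**Figure D2:**
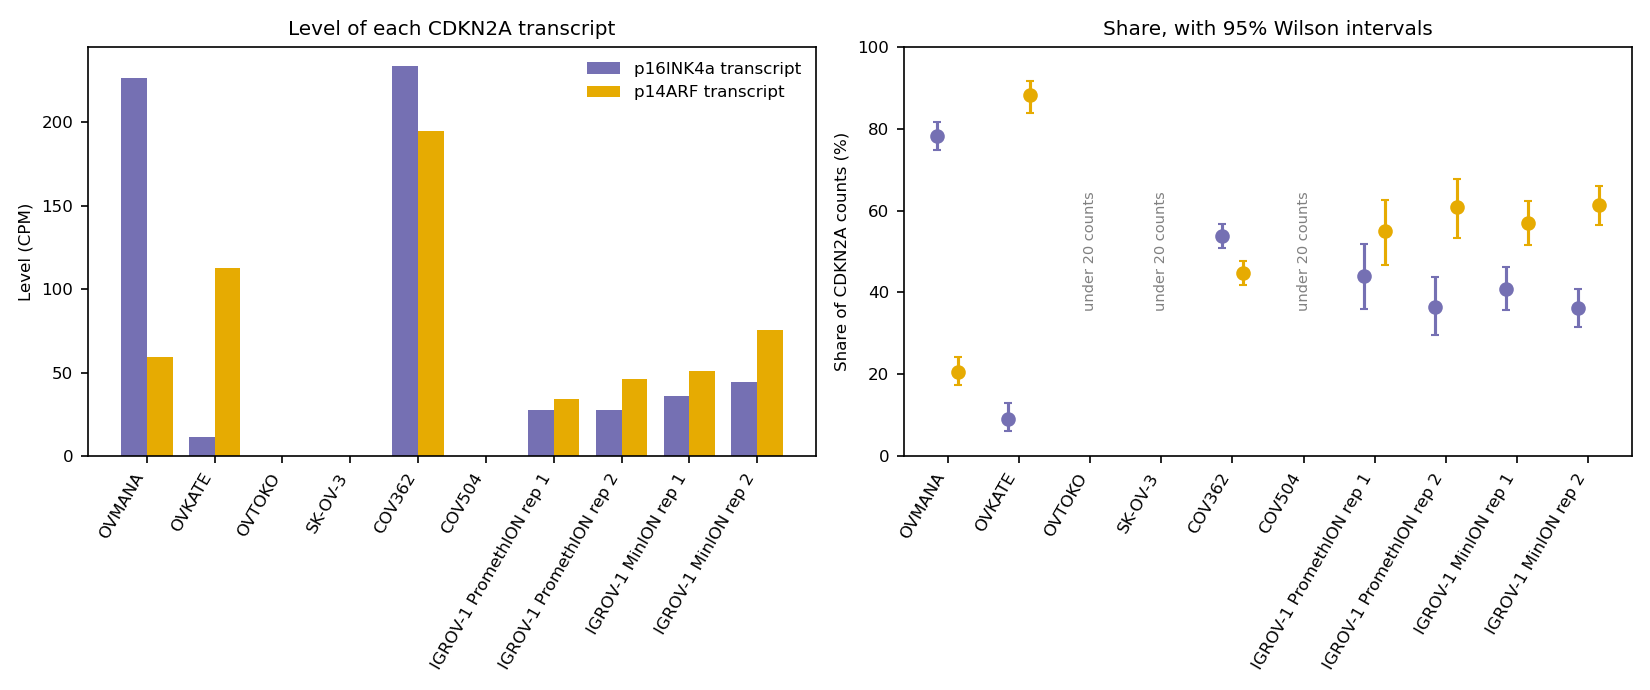
Left, CPM of the p16INK4a and p14ARF transcripts in each library, as bars from 0. Right, each transcript's share of all CDKN2A counts in percent with 95% Wilson intervals, for libraries with 20 or more counts. OVMANA sits at 78.3% p16INK4a and OVKATE at 9.0%, with COV362 and the 4 IGROV-1 libraries between them.

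CDKN2B (ENSG00000147883, chr9:22002903-22009363), next to CDKN2A and on the same strand, was a low-count gene wherever it was seen. OVKATE had 6.43 CPM (13 counts), OVMANA 5.34 CPM (10 counts) and COV362 4.31 CPM (11 counts). OVTOKO, SK-OV-3 and COV504 were at 0, and these are the 3 lines with 0 or 1 count of CDKN2A. The intervals of OVKATE, OVMANA and COV362 overlapped one another, so no order among them can be read at this depth. Their lower bounds (3.76, 2.9 and 2.41 CPM) lay above the upper bound of 2.22 CPM in OVTOKO, the shallowest of the lines at 0. These bounds cover counting error only. Between IGROV-1 replicates the level differed 8.55-fold on PromethION and 30.58-fold on MinION. For this gene a 0 in a single library therefore does not by itself set a line apart. In IGROV-1 the replicates disagreed in the same way on both instruments: the first replicate gave 2 counts on PromethION (0.85 CPM) and 1 on MinION (0.27 CPM), and the second 17 (7.3 CPM) and 27 (8.34 CPM). Each instrument's mean (4.08 ± 4.56 and 4.31 ± 5.71 CPM, SD, n = 2) therefore stands for no single library.

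In SK-OV-3 and OVTOKO, MTAP did not follow its neighbours. The deposited identifier joins MTAP with AL359922.1 and the antisense RNA CDKN2B-AS1 (chr9:21802543-22121095, plus strand), and it gave 39.9 CPM in OVTOKO, 29.4 in OVMANA, 28.9 in SK-OV-3, 27.7 in OVKATE and 24.7 in COV362. IGROV-1 gave 38.02 and 41.67 CPM on PromethION (39.8 ± 2.58, SD, n = 2) and 29.7 and 43.9 CPM on MinION. COV504 alone was low, with 3 counts (1.33 CPM). The other 6 lines had overlapping neighbour intervals, and COV362, the lowest of them, was 18.5-fold above COV504 (counting interval 6.05 to 92.1). Transcripts that GENCODE 29 assigns to MTAP itself held nearly all of these counts: 54 of 56 in OVKATE, 59 of 63 in COV362 and all 3 in COV504.

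Read by line, the 9p21 trio fell into 3 patterns. OVMANA, OVKATE, COV362 and IGROV-1 had reads of all 3 genes, with CDKN2B at 2 counts and 1 count in the first IGROV-1 replicates. SK-OV-3 and OVTOKO had MTAP at levels within the range of those lines' libraries, with CDKN2B at 0 and CDKN2A at 1 and 0 counts. COV504 had CDKN2A and CDKN2B at 0 and MTAP at 3 counts. The patterns rest on CDKN2A and MTAP, since a 0 of CDKN2B in a single library does not set a line apart. Genome copy number was not measured in these libraries.

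MTAP itself came as transcripts with different last exons, and the share of the longer one differed between lines. MTAP-201 (ENST00000380172) and MTAP-210 (ENST00000580900) share 7 exons and then part. MTAP-201 ends in an exon at chr9:21861976-21867078 and MTAP-210 in one at chr9:21931008-21937651, both on GRCh38, plus strand. The MTAP-210 exon lies 63.9 kb beyond the end of MTAP-201 and stops 30.1 kb short of the 3′ end of CDKN2A. The junctions are given because they decide the transcript, with the last 30 bases of exon 7 in lower case and the first 30 of exon 8 in capitals.
MTAP-201: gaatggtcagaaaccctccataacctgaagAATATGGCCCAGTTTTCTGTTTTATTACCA
MTAP-210: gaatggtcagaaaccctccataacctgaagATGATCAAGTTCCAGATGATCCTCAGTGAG
The coding part of the last exon is 36 bases in MTAP-201 and 189 in MTAP-210, so the proteins end differently. MTAP-210 held 3.7% of the identifier's counts in OVMANA, 3.6% in OVKATE, 4.4% in OVTOKO and 5.0% in COV362. It held 21.1% in SK-OV-3 (95% Wilson interval 12.5% to 33.3%). In IGROV-1 it held 27.0% ± 8.4 on PromethION (SD, n = 2) and 21.5% ± 4.0 on MinION (n = 2), from 18.6% to 32.9% over the 4 libraries. The estimates of every IGROV-1 library and of SK-OV-3 lay above those of the other 4 lines with 20 or more counts. These rest on 2 to 3.1 counts of MTAP-210 in those lines, and the interval of COV362 (1.6% to 13.1%) overlaps those of SK-OV-3 and of the first IGROV-1 MinION library (12.2% to 26.6%). edgeR's usage test found no difference between instruments (adjusted p 1, Simes p 0.71).

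The wider 9p21 region was read to show how far the low levels reached. Of 76 genes annotated within 2 Mb of CDKN2A, 13 had at least 1 count in any library, the 3 genes above among them. KLHL9, 632.4 kb on the MTAP side, gave 13.7 to 47.9 CPM in every library, and 31.1 CPM in COV504. FOCAD, 971.8 kb away on that side, gave 16.02 CPM in COV504, 15.61 in OVTOKO and 9.12 in SK-OV-3. The 3 lines low in CDKN2A thus had reads of both genes. HACD4, at 936.1 kb, was at 0 in OVMANA, OVTOKO and both MinION libraries, and MLLT3, at 1345.2 kb, was at 0 in OVKATE and at 41.1 CPM in OVTOKO. On the CDKN2B side, DMRTA1, 451.5 kb away, gave 2.22 CPM in COV504 (5 counts), 1.01 in SK-OV-3 and 4.62 in OVTOKO, and 0 in IGROV-1, which had reads of CDKN2A. ELAVL2 was at 0 in all 10 libraries, and IFNE reached no more than 0.78 CPM. IFNB1, FOCAD-AS1, AL359922.2 and LINC01239 had at most 2 counts in any library.

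**Figure D3:**
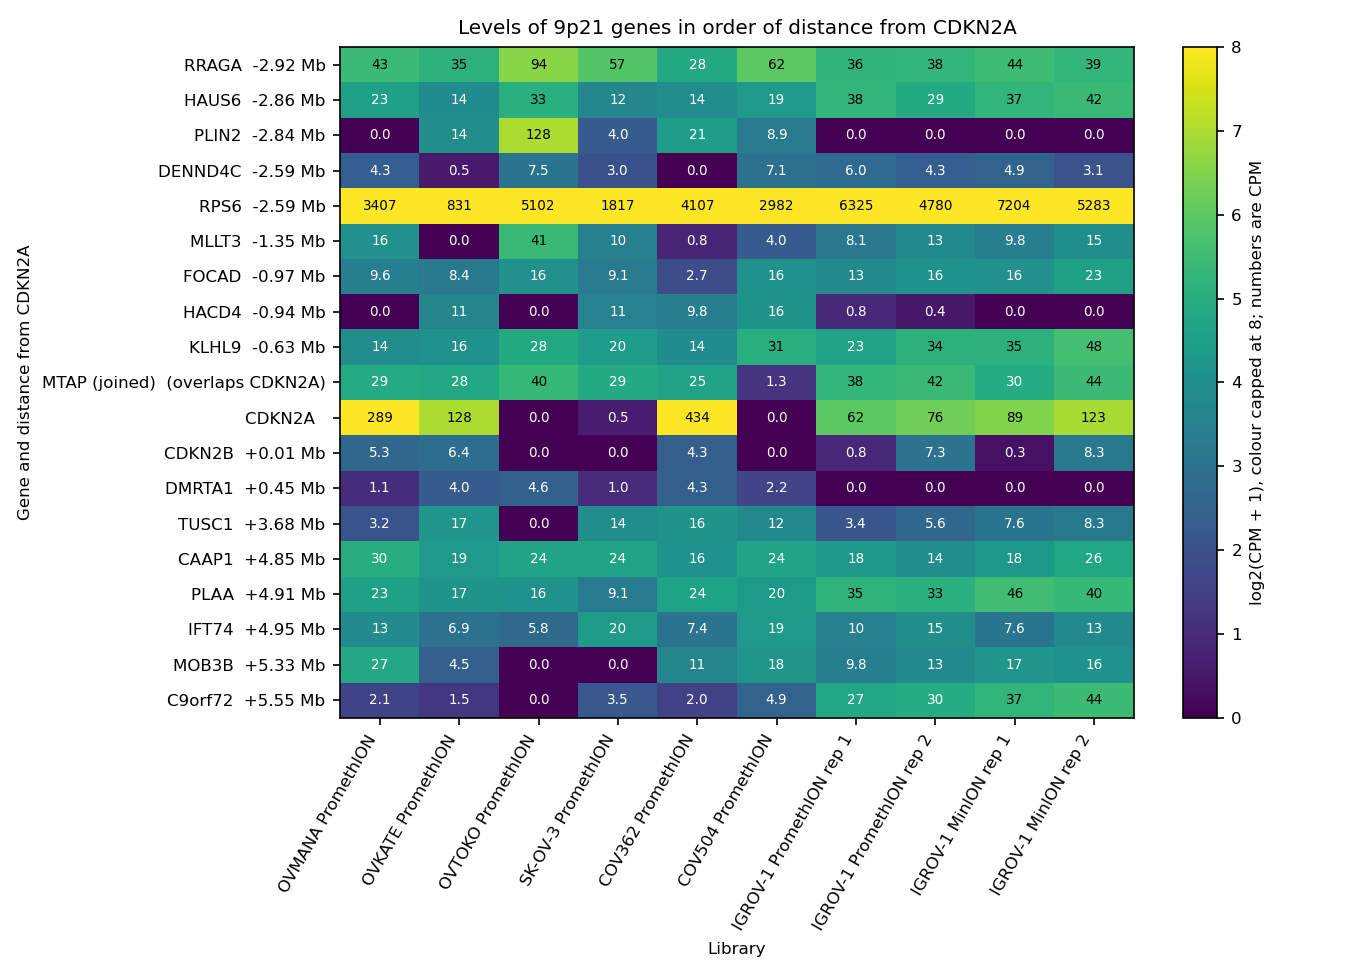
Levels of 9p21 genes with at least 2 CPM in some library, in order of distance from CDKN2A (rows, in Mb) and by library (columns). Colour is log2(CPM + 1), capped at 8, and each cell prints the CPM. The cells of CDKN2A and CDKN2B are 0 or below 1 CPM in OVTOKO, SK-OV-3 and COV504, while MTAP is low in COV504 alone.

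RB1 (ENSG00000139687, chr13:48303775-48481986), the target of the cyclin D kinases, was low in a single line. COV362 had 7 counts (2.74 CPM). The other lines ran 77.0 CPM in SK-OV-3, 61.0 in COV504, 43.4 in OVTOKO, 36.6 in OVKATE and 25.1 in OVMANA. IGROV-1 gave 34.2 and 33.9 CPM on PromethION (34.1 ± 0.17, SD, n = 2) and 30.3 and 43.0 CPM on MinION. From SK-OV-3 down to OVMANA each line's interval overlapped that of the next, and OVMANA stood 9.16-fold above COV362 (4.11 to 24.0). COV362, the line with least RB1 RNA, was the line with most CDKN2A RNA. SK-OV-3 and COV504, with the most RB1 RNA, were 2 of the 3 lines with 0 or 1 count of CDKN2A. With 7 lines this is a side-by-side reading of levels, not a tested relation.

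The D-type cyclins, the regulatory subunits of CDK4 and CDK6, differed in where they were highest. CCND1 (ENSG00000110092, chr11:69641087-69654474) was highest in IGROV-1, at 905 and 1170 CPM on PromethION (1038 ± 188, SD, n = 2) and 772 and 1040 CPM on MinION. It stood at 697 CPM in OVKATE, 357 in both COV504 and COV362, 250 in SK-OV-3, 205 in OVMANA and 117 in OVTOKO. Only COV504 and COV362 had overlapping intervals as neighbours, and IGROV-1 was 8.84-fold above OVTOKO (7.68 to 10.2). The 2 IGROV-1 PromethION libraries did not overlap each other either (867 to 944 and 1127 to 1215 CPM). Replicates differed 1.29-fold on PromethION and 1.35-fold on MinION, so steps of that size between single libraries do not set lines apart.

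CCND3 (ENSG00000112576, chr6:41934933-42050357) was highest in the lines that were lowest in CCND1. OVMANA had 324 CPM and OVTOKO 223 CPM. COV362 followed at 48.2 CPM, then OVKATE at 36.1, COV504 at 32.5 and SK-OV-3 at 30.4. IGROV-1 was lowest, with 22.6 and 18.9 CPM on PromethION (20.8 ± 2.64, SD, n = 2) and 19.4 and 19.2 CPM on MinION. OVTOKO was 4.62-fold above COV362 (3.76 to 5.71), and below that step each interval overlapped the next.

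CCND2 (ENSG00000118971, chr12:4273772-4305350) was highest in OVMANA, with 35 counts (18.7 CPM). COV362 had 7 counts, COV504 1 count, and the IGROV-1 libraries 3, 5, 5 and 12 counts. OVKATE, OVTOKO and SK-OV-3 were at 0. OVMANA was 6.82-fold above COV362 (2.98 to 18.2) and at least 12.6-fold higher than OVKATE.

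CCNE1 (ENSG00000105173, chr19:29811898-29824308), cyclin E1, the partner of CDK2, was likewise highest in OVMANA, at 79.6 CPM (149 counts). COV362 had 25.5 CPM and IGROV-1 15.8 and 14.6 CPM on PromethION (15.2 ± 0.85, SD, n = 2). OVTOKO had 9.25 CPM, OVKATE 7.42, COV504 5.78 and SK-OV-3 5.57. OVMANA was 3.13-fold above COV362 (2.32 to 4.25) and 14.3-fold above SK-OV-3 (7.76 to 29.3), and below OVMANA each interval overlapped the next. OVMANA was thus the highest line for CCND2, CCND3 and CCNE1 and second lowest for CCND1.

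The catalytic subunits differed in how much they varied. CDK4 (ENSG00000135446, chr12:57747727-57752521) ranged 1.97-fold (1.71 to 2.28) from SK-OV-3, at 133 CPM, to COV362, at 262 CPM. Between them stood OVKATE at 147, OVTOKO at 171, OVMANA at 173 and COV504 at 222 CPM, with IGROV-1 at 245 and 251 CPM on PromethION (248 ± 4.31, SD, n = 2). The only gap between neighbouring intervals lay between OVMANA and COV504.

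CDK6 (ENSG00000105810, chr7:92604921-92836594) was at 0 in all 4 IGROV-1 libraries, where 3 counts would have been 0.82 to 1.29 CPM. COV504 had 87.7 CPM (197 counts), COV362 57.6, OVKATE 41.1, OVTOKO 23.1, SK-OV-3 10.6 and OVMANA 8.55 CPM. COV504 was 10.3-fold above OVMANA (6.16 to 18.3) and at least 68.0-fold higher than the IGROV-1 PromethION libraries, taking 3 counts in the shallower of them. IGROV-1, with no CDK6 read, was the line highest in CCND1 and had CDK4 on PromethION within the range of the other lines.

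The remaining genes were close to single transcripts, so their gene levels are those of the main isoform. CCND1-201 (ENST00000227507) held 100% of CCND1 counts in every library, CCND3-203 (ENST00000372991) 92.1% to 97.6%, CDK4-201 (ENST00000257904) at least 99.8% and CDK6-201 at least 95.2%. RB1 and CCND2 have 1 transcript each in the files. ENST00000357943 of CCNE1 was the exception, with 7.2% of the gene's counts in COV362 and 7.9% and 20.4% on MinION (14.2% ± 8.8, SD, n = 2) against 0.6% ± 0.4 on PromethION in IGROV-1. CCNE1 did not enter the usage test, so this difference between instruments was not tested.

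IGROV-1 read on both instruments gives the only replicated contrast, and that contrast was not used to choose the genes. Of the 10 genes, 8 passed the filter on low counts, and CCND2 and CDK6 did not. edgeR's quasi-likelihood test called 0 of the 8 at a Benjamini-Hochberg adjusted p below 0.05, where it called 0.817% of 10041 genes (0.11% higher and 0.707% lower on MinION). At an unadjusted p under 0.05 it gave 1 of the 8, and DESeq2 called 0. These fits treat the libraries as unpaired. With the replicate number as a block, edgeR called 1979 of the 10041 genes, CDKN2A, CCND1 and CDK4 among them. The labels do not say whether replicate numbers pair the libraries, so the 0 calls do not show that the instruments agree on these genes. Without the block CDKN2A came closest, at 68.98 CPM on PromethION and 105.79 CPM (± 23.86, SD, n = 2) on MinION. Its log2 difference was 0.57 (SE 0.17, 95% interval -0.17 to 1.31), with an edgeR adjusted p of 0.17 (unadjusted 0.0098). The intervals in this paragraph use the 2 residual degrees of freedom alone. edgeR's p-values also draw on the spread over all genes, so the intervals are wider than its test implies. For CDKN2A both MinION libraries lay above both PromethION libraries. CDK4 was also without overlap, at 305 and 296 CPM on MinION, with a log2 difference of 0.24 (SE 0.12, interval -0.28 to 0.75, edgeR adjusted p 0.36). Separation of that kind held for 47.7% of all genes tested. The log2 differences of MTAP, RB1, CCND1, CCND3 and CCNE1 lay between -0.24 and 0.08, with edgeR adjusted p-values of 0.51 to 0.92. That of CDKN2B was -0.03 with a standard error of 1.05, so this gene's interval of -4.56 to 4.5 allows large differences either way.

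Gene lists around the pathway were then compared between each line and the IGROV-1 PromethION libraries by edgeR's quasi-likelihood test over 13030 genes. Each line has 1 library here, so its spread is assumed to be that of the IGROV-1 replicates, with 2 residual degrees of freedom. The calls therefore compare these libraries, with no replicate check of the line, and the 6 comparisons share the IGROV-1 libraries and are not independent. DESeq2 made far fewer calls, 1446 genes in OVMANA where edgeR made 4613. The lists were chosen with earlier results of these data known, so counts of calls describe these libraries and are no test of a list. The genes named from each list were chosen for their wide range over these libraries, so their levels are given as a description, with no test. The share of all genes called was 49.2% in OVKATE, 43.5% in COV504, 42.5% in COV362, 41.8% in SK-OV-3, 35.4% in OVMANA and 34.1% in OVTOKO. The median log2 difference of all genes was between -0.01 and 0.04 in each. Mitochondrial share differed between the IGROV-1 PromethION libraries and the other lines, as given above, and its part in these counts was not tested. Over all genes the lower calls were 22.4% in OVKATE, 19.8% in SK-OV-3, 18.8% in COV362, 19.6% in COV504, 15.9% in OVTOKO and 16.5% in OVMANA, and the higher calls 26.8%, 22%, 23.7%, 24%, 18.2% and 18.9%.

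The E2F targets of DNA replication, downstream of RB1, gave 16 of 19 genes lower and 1 higher in SK-OV-3 (median log2 difference -1.71), 10 and 1 in OVMANA (-0.79), 9 and 3 in OVKATE (-0.81) and 6 and 0 in OVTOKO (-0.33). COV504 had 4 lower and 3 higher (-0.3). COV362, the line low in RB1, had 3 lower and 3 higher (-0.12). DESeq2 called 11, 2, 2, 1, 0 and 0 of them lower in SK-OV-3, OVMANA, OVKATE, OVTOKO, COV504 and COV362. Without the first or the second MinION library edgeR called 5 and 6 lower in OVMANA. Leaving out either of them, or the first PromethION library, left 1 in COV362 and 2 in COV504. MCM7, a subunit of the replicative helicase, was at 24.3 CPM in SK-OV-3 and 216 and 201 CPM in IGROV-1. TK1, thymidine kinase, was at 55.2 CPM in SK-OV-3 and 763 CPM in OVKATE around 171 and 128 CPM in IGROV-1. ORC1, part of the origin recognition complex, was at 2.03 CPM in SK-OV-3 and 6.23 to 13.9 CPM in the other 5 lines against 32.9 and 24.1 CPM in IGROV-1. GINS2, a GINS complex subunit, was at 14.96 CPM in OVMANA and 107 CPM in COV504.

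Among the 5 other CDK inhibitors, CDKN1B had the widest range. It encodes p27, an inhibitor of cyclin E-CDK2, and it was at 0 in OVKATE against 141 and 169 CPM in IGROV-1, which was thus at least 104.7-fold higher. The other lines gave 29.4 to 81.9 CPM. CDKN1A, which encodes the CDK inhibitor p21, stood at 288 and 418 CPM in IGROV-1 and 271 CPM in OVTOKO, against 150 in OVMANA, 17.3 in OVKATE, 21.8 in SK-OV-3, 11.6 in COV504 and 13.7 in COV362. CDKN2C, an INK4 relative of CDKN2A, was at 85.1 CPM in OVKATE, 25.4 to 32.5 CPM in SK-OV-3, COV362 and COV504, and 1.07 CPM in OVMANA, against 8.54 and 4.3 CPM in IGROV-1. CDKN1C, which encodes p57, was at 42.7 CPM in COV504 and 1.16 CPM in OVTOKO. The list as a whole gave 3 higher and 2 lower calls in OVKATE, SK-OV-3 and COV504, 1 and 2 in COV362, 0 and 2 in OVTOKO and 0 and 3 in OVMANA, with median log2 differences of -1.18 in OVMANA to 1.89 in COV504. DESeq2 called 2 higher in OVKATE and 0 higher in the other lines. Without the first MinION library edgeR called 1 lower in OVMANA and 1 in OVTOKO.

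The RB family, E2F and DP list had 12 genes tested, of which 1 to 3 were higher and 2 to 5 lower in each line. Median log2 differences were -0.52 to 0.28. E2F2, an activating E2F, was at 0 in SK-OV-3 and 0.89 CPM in COV504 against 14.1 and 14.2 CPM in IGROV-1. RBL1, which encodes the RB relative p107, was at 2.14 CPM in OVMANA and 25.8 CPM in COV504, and TFDP2, a DP partner of E2F, at 92.4 and 9.79 CPM in these lines. E2F8, a repressive E2F, was at 0 in COV362 and 7.26 and 4.3 CPM in IGROV-1.

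Of 11 other genes of G1 and S entry, 0 to 2 were higher and 2 to 4 lower in each line. SKP2, the ubiquitin ligase subunit that targets p27, was at 21.3 to 55.4 CPM in the 6 lines against 134 and 112 CPM in IGROV-1. FBXW7, which targets cyclin E for degradation, was at 5.34 to 13.3 CPM in 5 lines and 34.2 CPM in OVMANA against 35.0 and 40.4 CPM in IGROV-1. CDC25A, a phosphatase that activates CDK2, was at 1.01 CPM in SK-OV-3 and 9.82 and 9.88 CPM in IGROV-1. CCNE2, the other cyclin E, was at 0.51 to 7.12 CPM.

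The methionine salvage and PRMT5 list, the setting of MTAP, had 12 genes tested. COV504, the line low in MTAP, had 2 higher and 2 lower calls (median log2 difference -0.23). COV362 had 6 higher and 1 lower (0.46), OVKATE 3 and 7 (-0.66), SK-OV-3 1 and 6 (-0.57), OVTOKO 3 and 3 (0.06) and OVMANA 2 and 2 (0.03). MRI1, the isomerase that acts next after MTAP, was at 5.78 CPM in COV504 against 59.8 and 39.1 CPM in IGROV-1 and at 11.7 to 33.3 CPM in the other lines. APIP, the dehydratase that follows it, was at 46.0 to 83.6 CPM in the 6 lines against 20.9 and 19.3 CPM in IGROV-1. ADI1, the dioxygenase of the pathway, reached 359 CPM in COV362 and 99.8 CPM in SK-OV-3 around 170 and 180 CPM in IGROV-1. RIOK1, a partner of PRMT5, was at 15.03 to 36.47 CPM against 43.6 and 50.3 CPM in IGROV-1.

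Polycomb proteins repress the INK4 locus, and 8 of 10 genes of a list of them and of TBX2 and TBX3 could be tested. Each line had 0 to 2 higher and 2 to 5 lower calls, with median log2 differences of -1.29 to -0.16. EZH2, the Polycomb methyltransferase, was at 105 CPM in COV362 and at 15.6 to 58.7 CPM in the other 5 lines against 41.9 and 24.1 CPM in IGROV-1. In OVTOKO, SK-OV-3 and COV504, the lines with 0 or 1 count of CDKN2A, it was at 15.6, 19.8 and 58.7 CPM. EED, its partner, was at 9.83 CPM in OVTOKO and 74.2 CPM in OVKATE. TBX2 reached 4.62 CPM in OVTOKO, and TBX3 was read in COV504 alone, at 5.34 CPM.

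Of the 22 genes of the 9p21 neighbour list, 16 were tested, with 2 to 5 higher and 1 to 8 lower calls in each line. Farther from CDKN2A, C9orf72 was at 0 to 4.89 CPM in the 6 lines against 26.9 and 30.1 CPM in IGROV-1. PLIN2, a lipid droplet protein, was at 128 CPM in OVTOKO and 0 in OVMANA and IGROV-1. MOB3B was at 0 in OVTOKO and SK-OV-3 and 27.3 CPM in OVMANA.

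**Figure D4:**
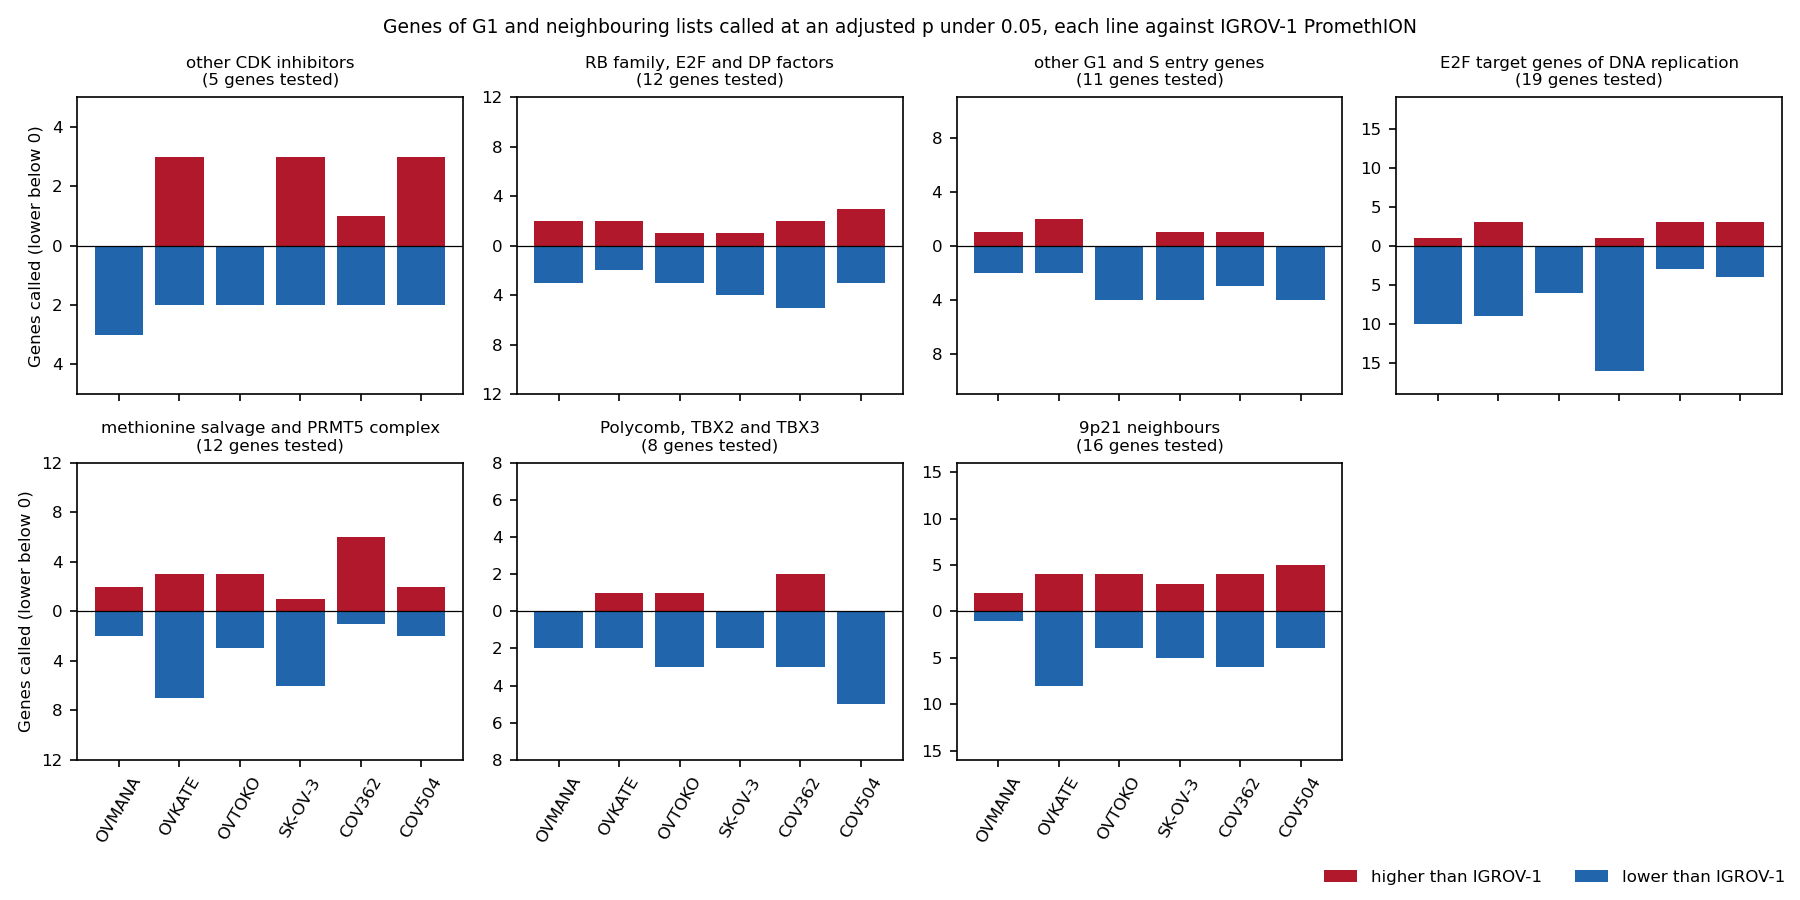
Number of genes in each list called higher (red, above 0) or lower (blue, below 0) than in IGROV-1 PromethION by edgeR at an adjusted p under 0.05, for each of 6 lines. Axes end at the number of genes tested. The E2F target list has 16 lower calls in SK-OV-3 and 3 in COV362.

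Genes whose levels ran most like those of CDKN2A, RB1, CCND2 and CCNE1 were ranked by Pearson's r of log2(CPM + 1) over the 7 lines among 11210 genes, as a description of 7 points that share library depth. For CDKN2A they were MDH1 (r 0.983), ATAD3B (0.962), RMND5B (0.942), AP4B1 (0.941) and GAL (0.933). MDH1 itself moved little, from 303 to 457 CPM, so a high r does not mean a like range. For RB1 they were MEF2A (0.969), an identifier joining VPS16 and PTPRA (0.968), MICU2 (0.966), UBXN4 (0.964) and DYNC1LI2 (0.964). CCND2 was most like TG (0.992), CCNE1 (0.966), an identifier joining AC034102.2 and PA2G4 (0.956), SLC25A45 (0.954) and CEBPZ (0.953). CCNE1 was most like PRKCB (0.991), the same AC034102.2 and PA2G4 identifier (0.991), TG (0.98), CDHR1 (0.979) and CCND2 (0.966).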

How the data were processed

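The 10 libraries of 7 lines were grouped by the line and instrument in the labels. The authors deposited estimated counts per transcript and TPM. Reads were aligned with minimap2 2.24-r1122 and GRCh38 was used, per the submitters' processing notes, and for the quantification tool the sources used here give no name. The deposited TPM equal counts scaled to a library total of 1000000 within 5.6e-11 and are not divided by length, so they are called CPM here. Estimated counts deposited by the authors were summed per gene identifier and rounded for tests.

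Genes were tested with edgeR 4.0.16 (R 4.3.3; TMM, filterByExpr, quasi-likelihood, Benjamini-Hochberg, threshold 0.05), transcript usage with its diffSpliceDGE, and DESeq2 1.42.0 was an alternative. Both IGROV-1 contrasts had 2 residual degrees of freedom and a coefficient of variation of 11.7%. Simulated data had the same spread setting for every gene and no replicate effect, so rates from them need not hold for these libraries. On them, edgeR recovered 61.0% of genes changed by 1 on the log2 scale between instruments and 22.5% between a line and IGROV-1. Intervals are 95% Wilson or exact and cover counting error only. Exons came from GENCODE 29, in which 99.9% of transcripts were found. The members and gene lists were chosen with earlier results of these data known. Named genes are all members, transcripts with at least 10% of a member's counts, up to 4 genes a list with the widest range, 9p21 genes within 2 Mb and the 5 most alike genes. Joined identifiers (722) were kept; other settings are in the closing section. Some items are not reported here.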

Additional observations from a re-analysis of the deposited data

How the results depend on the processing

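Between instruments, 82 genes were called, and 49 in a fit over all 10 libraries, 15 with no filter and 1979 with the replicate block. Leaving out each library gave 4 to 209. The usage count of 176 became 105 at a mean of 10 CPM and 40 to 59 without each library. The labels do not say whether replicate numbers pair libraries, and there would be only 2 pairs. Replicate differences were correlated between instruments (Pearson 0.37 across 10041 genes), and whether the libraries are paired was not tested. Under the block, CDKN2A (edgeR adjusted p 2.8e-06), CCND1 (0.0023) and CDK4 (0.0094) passed, and no member passed under another alternative run. Each line other than IGROV-1 has 1 library, so no paired analysis was possible between lines. DESeq2 gave 1446 genes in OVMANA, 2117 in OVKATE, 1305 in OVTOKO, 1679 in SK-OV-3, 1566 in COV362 and 1775 in COV504, where edgeR gave 4613, 6405, 4443, 5446, 5544 and 5672. The OVTOKO count was 2890 to 4398 without each IGROV-1 library, and lowest without MinION replicate 1. Of 228 results on named list genes, 61 lost their call under DESeq2. Leaving mitochondrial counts out of the totals moved 8 of 100 member levels beyond their interval, and TMM scaling 6 of 100. The order of lines for CDKN2A, CCND2, CCNE1 and CDK6 was unchanged under both, and for the other members the lines that changed places had overlapping intervals. With transcripts of a single gene name MTAP has no value. Taking the GENCODE MTAP transcripts, an alternative chosen after seeing the data, moved 0 of 10 levels. Setting transcripts below 1 count to 0 took CDKN2A in SK-OV-3 to 0. Genes with few counts, such as CDKN2B and CCND2, are limited by depth. The cause of these shifts was not tested.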
